A study of Homo sapiens with 4 samples.

Results

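Matrix metalloproteinases (MMPs), the membrane and secreted ADAM and ADAMTS proteases, and their tissue inhibitors (TIMPs) were followed by poly(A) RNA sequencing in Panc1, a widely used human line derived from a ductal carcinoma of the pancreas. The members were all genes of the deposited tables whose symbol is MMP, ADAM, ADAMTS or TIMP followed by a number (with MMP23A and MMP23B), which gave 69 genes of 54628. They comprise 24 MMP, 22 ADAM, 19 ADAMTS and 4 TIMP genes. Per the labels, 2 libraries come from cells given small interfering RNA (siRNA) targeting HMGB2, a chromatin protein with HMG boxes, and 2 from control cells given scramble siRNA. Time after transfection, siRNA sequence and number of cultures are not given in the sources used here, so that the spread behind each p-value is that of the libraries at hand and could be purely technical. In bulk RNA, fewer cells that express a gene and less RNA per cell cannot be told apart.

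The targeted gene went against the labels. In CPM, which are counts scaled so that libraries of different depth can be compared, HMGB2 (chr4:173331376-173334358 of GRCh38) had 128 and 134 in the libraries labelled HMGB2 siRNA, against 15.7 and 15.3 CPM in those labelled scramble. It was thus 8.43-fold higher under the knockdown label (log2 fold change 3.07 ± 0.08 SE, edgeR adjusted p = 1.54e-33). The count columns in the deposited tables are also headed with the opposite treatment in all 4 cases. Directions below set the libraries labelled HMGB2 siRNA, in which HMGB2 was high, against the libraries labelled scramble, in which HMGB2 was low. The libraries held 20340695 to 31852391 gene counts. The keratin and EPCAM transcripts of an epithelial carcinoma cell summed to 4470 and 4490 CPM of the library totals under the HMGB2 siRNA label and to 4210 and 3340 CPM under the scramble label, a difference whose part in the results below was not tested. CDKN2A, known to be deleted in Panc1, had 0 counts in all 4. Summed markers of fibroblasts (58.7 to 79.1 CPM, mostly COL1A1, with DCN at 0 and LUM at no more than 1 count) overlapped between the groups. Within that list COL3A1 (2.73 and 2.29 against 1.14 and 1.23 CPM) and PDGFRB (0.816 and 1.05 against 0.32 and 0.197 CPM) were higher in both libraries labelled HMGB2 siRNA, and their part in the results below was not tested. Leukocyte markers summed to 102 to 123 CPM through CD68, with PTPRC at no more than 1 count and CD3E at 0. The endothelial sum was no more than 0.188 CPM and the acinar sum no more than 0.0983 CPM.

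Most of these proteases hold a catalytic zinc ion and are made as inactive precursors. MMPs degrade collagens, gelatin and other matrix proteins, ADAMs mostly cut membrane proteins at the cell surface and release their outer parts, and ADAMTS proteases process proteoglycans, procollagens and other secreted proteins. TIMPs block the active site, and TIMP2 also has a part in activation: it bridges the membrane protease MMP14 and the precursor of MMP2, which a neighbouring free MMP14 then cuts. In pancreatic carcinoma these genes are studied for matrix remodelling and for the release of growth factors.

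Of the 69 members 30 had enough counts to be tested and 39 did not. Among the latter, 19 had 0 counts in all 4 libraries, which allows up to 0.0954 to 0.146 CPM per library (3 counts of the TMM-scaled total, counting error only). Another 16 had fewer than 10 counts in every library, and 4 (ADAMTS4, ADAMTS6, ADAMTS18 and MMP9) reached 10 or more in at least 1 library but not the level the filter asks for. The members without a count include the collagenases MMP8 and MMP13, the elastase MMP12, the stromelysin MMP11, the aggrecanase ADAMTS5 and the inhibitor TIMP4. MMP11 is among 11 members, 9 of them not tested, with exons also on an alternative sequence of the assembly, where reads that match both copies may be left uncounted. TIMP3, a matrix-bound inhibitor, had 2 and 5 counts against 2 and 1. MMP9, a gelatinase, had 10 and 9 counts against 10 and 3.

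Set per kilobase of exon, TIMP1 and MMP2 stood well above the other members. TIMP1, a secreted inhibitor, had 39.3 and 41.7 CPM per kilobase in the libraries labelled HMGB2 siRNA, against 39.7 and 33.1 in those labelled scramble. MMP2, the gelatinase that cleaves denatured and basement membrane collagen, had 37.8 and 38.3 against 34.6 and 29.9 CPM per kilobase. TIMP1 exceeded MMP2 within each library, by ratios of 1.04 to 1.15, though the values of the 2 transcripts overlapped across libraries. Next came ADAMTS15, with a mean over both groups of 14.0 CPM per kilobase, then ADAM15 (12), ADAM10 (11.8) and ADAM9 (11.7), whose library values overlap. TIMP2 (9.72), MMP14 (8.44), ADAM17 (6.78), MMP15 (5.75) and MMP17 (5.73) followed, and MMP7 was next at 2.40. This order is one of means over both groups, and it differed between them. ADAMTS15 was below ADAM10 under the HMGB2 siRNA label (11.7 and 12.6 against 13.6 and 13.2). Under the scramble label ADAMTS15 was above ADAM10 (16.3 and 15.5 against 9.79 and 10.5). Levels per kilobase use all exons listed for a gene on its chromosome, so a transcript with shorter exon use than the union reads low.

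**Figure D1:**
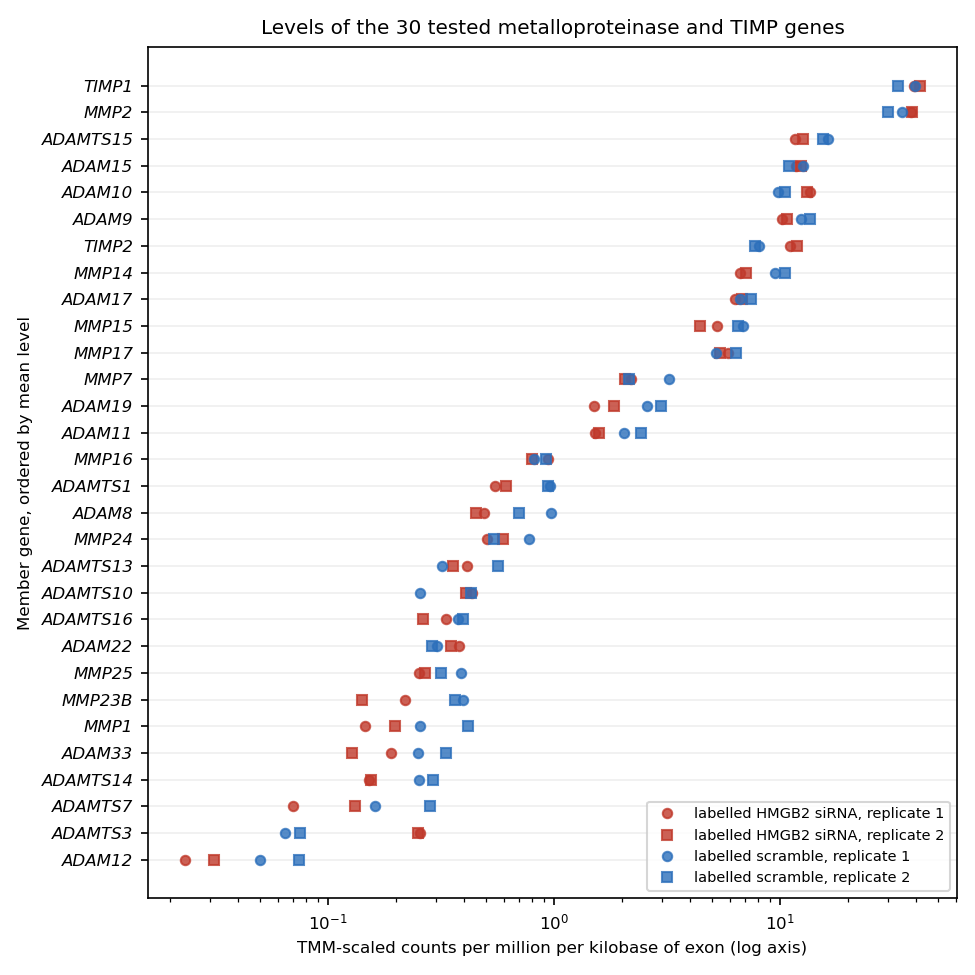
Levels of the 30 tested members, in TMM-scaled CPM per kilobase of exon on a log axis. Each row is a gene and each point 1 library (red, labelled HMGB2 siRNA; blue, labelled scramble; circles, replicate 1; squares, replicate 2). TIMP1 and MMP2 lie between 29.9 and 41.7, and ADAM12 is lowest.

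A cluster of MMP genes on chr11:102520508-102955732 had few reads. It holds 9 members, of which only MMP7 (matrilysin) and MMP1 (interstitial collagenase) could be tested. MMP7 had 2.45 and 2.29 CPM under the HMGB2 siRNA label and 3.59 and 2.40 CPM under the scramble label, and MMP1 had 0.286 and 0.390 against 0.50 and 0.816 CPM. Neither passed (edgeR adjusted p = 0.348 and 0.176). MMP10, a stromelysin of the same cluster, had 1 count in 1 library.

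Promoter sequences of RefSeq (GRCh38.p14, 250 bases before to 50 after the start) were matched for 39 of the 69 members, in 40 windows because ADAMTS10 has more than 1. Only 5 of the 9 members of the chromosome 11 cluster had a window, and these had 33.3% to 44.3% G and C, with a median of 36.3%. The 19 windows of tested members had a median of 74.0% and the 35116 windows of all genes 58.7%. Those 19 windows cover 18 of the 30 tested members, and MMP2, TIMP2 and ADAM9 are among those without a window. The 100 bases before the start are shown for 3 members that passed the test at high levels (MMP14, ADAM10 and MMP15) and for 2 members of the cluster (MMP7 and MMP10), 5′ to 3′ on the strand of the gene. Capitals mark TGANTCA (the letters bound by AP-1 factors), TATAAA and GGGCGG (a GC box), searched on both strands, so that CCGCCC is a GC box of the other strand. None of these matches overlap.
MMP14, chr14:22836485-22836584, plus strand: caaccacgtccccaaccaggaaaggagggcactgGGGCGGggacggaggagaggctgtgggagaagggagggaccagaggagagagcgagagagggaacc
ADAM10, chr15:58749708-58749807, minus strand: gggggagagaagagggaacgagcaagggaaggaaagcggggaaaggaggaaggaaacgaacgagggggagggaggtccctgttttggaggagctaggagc
MMP15, chr16:58025654-58025753, plus strand: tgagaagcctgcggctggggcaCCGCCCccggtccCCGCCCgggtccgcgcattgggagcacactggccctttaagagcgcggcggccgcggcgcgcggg
MMP7, chr11:102530748-102530847, minus strand: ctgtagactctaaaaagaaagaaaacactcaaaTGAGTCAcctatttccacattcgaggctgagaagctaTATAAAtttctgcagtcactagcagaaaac
MMP10, chr11:102780629-102780728, minus strand: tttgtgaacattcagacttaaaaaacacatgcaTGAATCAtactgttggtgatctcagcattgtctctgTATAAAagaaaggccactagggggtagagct

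MMP7 and MMP10 both carried TGANTCA 67 bases before the start, with TATAAA at 30 and 31 bases, while MMP14 and MMP15 carried GC boxes and ADAM10 had no match to any of these motifs in the 100 bases shown. In its whole window ADAM10 did carry GGGCGG. Of the cluster members not shown, MMP20 carried TGANTCA and TATAAA in its window, MMP8 only TATAAA and MMP27 none of these motifs. Over whole windows, GGGCGG stood in 16 of 19 windows of tested members (84.2%), in 10 of 21 windows of members not tested (47.6%) and in 45.0% of all windows. TATAAA stood in 2 of 19 (10.5%), in 6 of 21 (28.6%) and in 11.5%. TGANTCA stood in 1 of 19 (5.26%), in 3 of 21 (14.3%) and in 7.71%. All windows include those of genes that were not tested. Over tested genes only TGANTCA was counted, in 5.17% of 16033 windows. These are letter matches, given as a description without a test.

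Of the 30 tested members 4 rose, 9 fell and 17 did not pass. Called members made up 43.3%, beside 30.8% of all 15161 tested genes (16.7% called higher and 14.1% called lower). On the log2 scale the median change was -0.34 for the 30 tested members, beside -0.01 for all tested genes. With upper-quartile or total-count scaling the share of higher calls among all called genes was 42.0% and 43.3% instead of 54.3%, but the members counted 4 higher and 9 lower under each. In 5 members both libraries labelled HMGB2 siRNA lay above both labelled scramble, in 16 they lay below, and in 9 the groups overlapped. Groups did not overlap for 63.7% of all tested genes. Fold changes were also recomputed without single libraries, which leaves 1 library in a group. The median over the tested members was -0.36 without replicate 1 labelled HMGB2 siRNA, the most deeply sequenced library, and -0.34 without replicate 2. It was -0.35 without scramble replicate 1 and -0.41 without scramble replicate 2. How many members were called depended on the library left out.

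**Figure D2:**
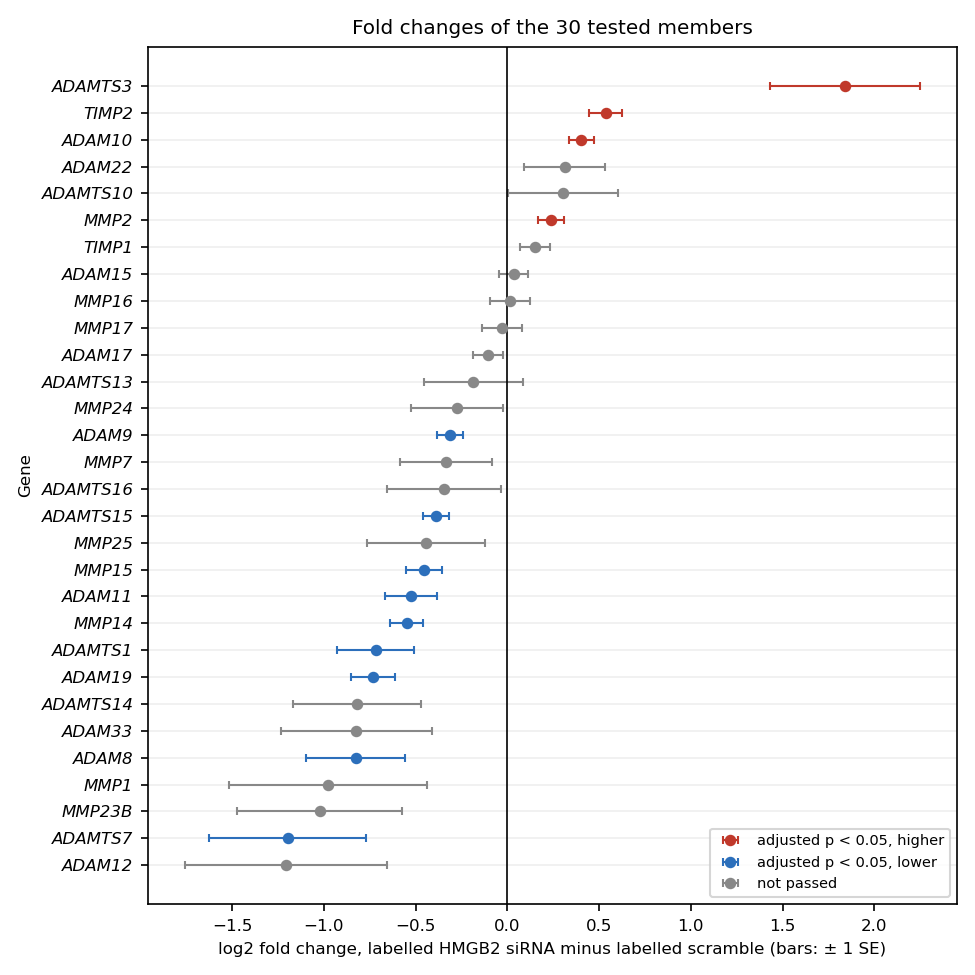
Log2 fold changes of the 30 tested members, labelled HMGB2 siRNA minus labelled scramble, with bars of 1 SE on either side. HMGB2 itself was higher under the HMGB2 siRNA label. Red and blue mark adjusted p under 0.05 (4 higher, 9 lower) and grey marks members that did not pass, which include the widest bars among genes of low level.

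Of the MMP2 activation complex, TIMP2 and MMP2 rose and MMP14 fell. TIMP2 (chr17:78852977-78925387) had 40.5 and 43.6 CPM in the libraries labelled HMGB2 siRNA, against 29.5 and 28.3 CPM in those labelled scramble. Both libraries of the first label were higher, and TIMP2 was 1.45-fold higher (log2 fold change 0.54 ± 0.09 SE, adjusted p = 1.96e-06). MMP14 (chr14:22836585-22847758), the membrane-type collagenase, went the other way, with 24.7 and 26.1 CPM against 35.3 and 38.8 CPM. Its groups were also apart, with a log2 fold change of -0.55 ± 0.09 SE (adjusted p = 3.13e-06). MMP2 (chr16:55478830-55506691) had 155 and 157 CPM against 142 and 123 CPM. The MMP2 groups were apart by a small margin, and it was 1.18-fold higher (log2 fold change 0.24 ± 0.07 SE, adjusted p = 0.00569). The MMP2 call was lost without replicate 1 (adjusted p = 0.0883) or replicate 2 labelled HMGB2 siRNA (0.105) and without scramble replicate 2 (0.0825).

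Per kilobase, TIMP2 exceeded MMP14 by ratios of 1.66 and 1.70 in the libraries labelled HMGB2 siRNA and was below it, with ratios of 0.848 and 0.739, in those labelled scramble. The ratio of MMP2 to MMP14 was 5.67 and 5.44 against 3.63 and 2.85, and that of MMP2 to TIMP2 was 3.41 and 3.21 against 4.28 and 3.86. All 3 ratios were apart between the groups. With 2 libraries on each side the smallest two-sided p of an exact permutation test is 0.333, and no test of these ratios is given. They compare transcripts, not proteins. Whether a ratio lies above or below 1 depends on the exon lengths used, while its shift between the groups does not.

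**Figure D3:**
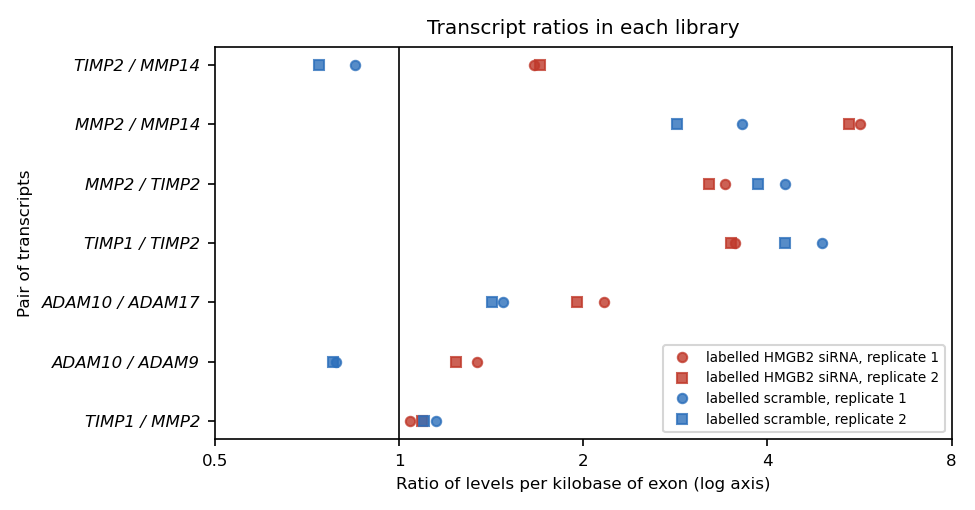
Ratios of transcript levels per kilobase of exon in each library, on a log axis with a line at 1. Red points are libraries labelled HMGB2 siRNA and blue points those labelled scramble, with circles for replicate 1 and squares for replicate 2. TIMP2 to MMP14 and ADAM10 to ADAM9 lie above 1 in both libraries labelled HMGB2 siRNA and below 1 in both labelled scramble. The position relative to 1 depends on the exon lengths used.

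TIMP1 (chrX:47582408-47586789), the other tested inhibitor, had 72.3 and 76.7 CPM under the HMGB2 siRNA label and 73.1 and 60.9 CPM under the scramble label. The groups overlapped and it did not pass (log2 fold change 0.15 ± 0.08 SE, adjusted p = 0.135). Without scramble replicate 1 it was called higher (log2 fold change 0.29, adjusted p = 0.000428), and without scramble replicate 2 its log2 fold change was 0.03 (adjusted p = 0.834). The ratio of TIMP1 to MMP2 per kilobase was 1.04 and 1.09 against 1.15 and 1.10, nearly level in the 4 libraries.

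Among the other MMPs anchored in the membrane, MMP15 fell. MMP15 (chr16:58025754-58046901), a transmembrane protease like MMP14, had 21.3 and 18.0 CPM in the libraries labelled HMGB2 siRNA, against 27.8 and 26.4 CPM in those labelled scramble. This gave a log2 fold change of -0.45 ± 0.10 SE (adjusted p = 0.000364), and the call was lost without replicate 2 labelled HMGB2 siRNA (adjusted p = 0.0745). MMP17, which is held by a lipid anchor, had 21.3 and 19.5 against 18.9 and 22.9 CPM, and the transmembrane MMP16 had 18.8 and 16.0 against 16.4 and 18.4 CPM. The groups of both overlapped, with log2 fold changes of -0.03 ± 0.11 SE and 0.01 ± 0.11 SE. MMP24, MMP25 and MMP23B also did not pass, with log2 fold changes of -0.27 ± 0.25, -0.44 ± 0.32 and -1.02 ± 0.45 SE. MMP23B is nearly identical to the pseudogene MMP23A and shares exon bases with CDK11B on the opposite strand, so its reads are uncertain, and MMP24 and MMP25 share exon bases with antisense genes.

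The sheddases of the ADAM family moved in different directions. ADAM10 (chr15:58588809-58749707), which releases the outer parts of NOTCH, cadherins and growth factor precursors, had 155 and 149 CPM in the libraries labelled HMGB2 siRNA, against 111 and 119 CPM in those labelled scramble. It was 1.32-fold higher, with the groups apart (log2 fold change 0.40 ± 0.07 SE, adjusted p = 3.23e-06). ADAM9 (chr8:38996767-39105261), another membrane sheddase, had 95.9 and 100 CPM against 117 and 127 CPM. That is a log2 fold change of -0.31 ± 0.07 SE (adjusted p = 0.000283), which was no longer called without replicate 1 labelled HMGB2 siRNA (adjusted p = 0.0639). ADAM9 is among the genes with exons on an alternative sequence, and it shares exon bases with TM2D2 on the opposite strand. The ratio of ADAM10 to ADAM9 per kilobase was 1.34 and 1.24 in the libraries labelled HMGB2 siRNA, against 0.790 and 0.781 in those labelled scramble.

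ADAM17, which releases TNF and several ligands of the EGF receptor, had 42.2 and 45.1 CPM under the HMGB2 siRNA label and 44.2 and 49.5 CPM under the scramble label. The groups overlapped and it did not pass (log2 fold change -0.10 ± 0.08 SE, adjusted p = 0.357). ADAM17 shares 1611 of its 6674 exon bases with IAH1 on the opposite strand, and without knowing the strand setting reads within the shared bases cannot be told apart. ADAM15, a disintegrin protease of the cell surface, had 40.0 and 41.8 against 42.7 and 37.0 CPM and a log2 fold change of 0.03 ± 0.08 SE. The ratio of ADAM10 to ADAM17 per kilobase was 2.16 and 1.95 against 1.48 and 1.42.

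ADAM19, ADAM8 and ADAM11 fell. ADAM19 (chr5:157477304-157575775), a protease that can shed neuregulin, had 9.77 and 12 CPM in the libraries labelled HMGB2 siRNA, against 16.7 and 19.2 CPM in those labelled scramble. Its log2 fold change of -0.73 ± 0.12 SE (adjusted p = 3.71e-06) was the largest fall among called members above 5 CPM. ADAM11 (chr17:44758988-44781846), a family member without protease activity, had 7.76 and 8.09 CPM against 10.4 and 12.4 CPM, a log2 fold change of -0.52 ± 0.14 SE (adjusted p = 0.00286, and 0.0633 without replicate 1 labelled HMGB2 siRNA). ADAM8 (chr10:133262422-133276891), known from leukocytes and from pancreatic tumours, had 1.85 and 1.71 CPM against 3.68 and 2.64 CPM. It passed with a log2 fold change of -0.83 ± 0.27 SE (adjusted p = 0.0148) and lost the call without replicate 1 (adjusted p = 0.0807) or replicate 2 labelled HMGB2 siRNA (0.0931), without scramble replicate 1 (0.204) and with DESeq2 (0.087). ADAM33, ADAM12 and ADAM22 did not pass, with log2 fold changes of -0.82 ± 0.41, -1.21 ± 0.55 and 0.31 ± 0.22 SE. ADAM12 had 7 to 17 counts per library, with 0.254 and 0.341 CPM under the HMGB2 siRNA label against 0.545 and 0.816 CPM under scramble (unadjusted p = 0.0327, adjusted p = 0.0904), so the groups did not overlap.

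ADAMTS3 showed the largest change of any called member. ADAMTS3 (chr4:72280969-72569221), which removes the N-propeptide of procollagens and takes part in the activation of VEGFC, had 56 and 36 counts under the HMGB2 siRNA label and 10 and 11 counts under the scramble label. These are 1.78 and 1.75 CPM against 0.454 and 0.528 CPM, with little spread within either group. It was 3.58-fold higher (log2 fold change 1.84 ± 0.41 SE, adjusted p = 0.000354), and DESeq2 gave it no adjusted p. ADAMTS14, a protease of the same class, had 0.954 and 0.975 against 1.59 and 1.82 CPM, and its log2 fold change of -0.82 ± 0.35 SE did not pass (adjusted p = 0.0705). ADAMTS2, the class member best known for procollagen I, was not tested and had 9 and 3 counts against 9 and 4.

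The proteoglycan-cleaving ADAMTS genes that could be tested both fell. ADAMTS15 (chr11:130448645-130478215), a versicanase, had 76.7 and 83.2 CPM under the HMGB2 siRNA label and 107 and 102 CPM under the scramble label. The groups were apart, with a log2 fold change of -0.39 ± 0.07 SE (adjusted p = 1.31e-05). ADAMTS1 (chr21:26835755-26845409), which cleaves versican and aggrecan, had 2.83 and 3.17 CPM against 4.95 and 4.85 CPM. Its log2 fold change was -0.72 ± 0.21 SE (adjusted p = 0.00656), and it was not called without replicate 1 labelled HMGB2 siRNA (0.124) or with DESeq2 (0.0518). ADAMTS4, an aggrecanase, did not pass the filter on low counts, with 10 and 12 counts against 2 and 0. It was singled out after its values were seen: without that filter it was called higher (log2 fold change 3.11 ± 1.01 SE, adjusted p = 0.0168). It shares 112 exon bases with B4GALT3 on its own strand, a gene with 925 to 1443 counts per library, so its reads are uncertain. The 4 other members of this class were ADAMTS5, ADAMTS9 and ADAMTS20, with 0 counts in all libraries, and ADAMTS8, with 2 and 0 counts against 4 and 9.

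Of the other ADAMTS genes, ADAMTS7 (chr15:78759203-78811476), which cleaves cartilage oligomeric matrix protein, had 0.414 and 0.780 CPM in the libraries labelled HMGB2 siRNA, against 0.954 and 1.68 CPM in those labelled scramble. Its log2 fold change of -1.20 ± 0.43 SE passed (adjusted p = 0.0302), but not without replicate 1 labelled HMGB2 siRNA (-0.74, adjusted p = 0.452) or scramble replicate 2 (-0.74, 0.385). The von Willebrand factor protease ADAMTS13, ADAMTS10 and ADAMTS16 did not pass, with log2 fold changes of -0.19 ± 0.27, 0.30 ± 0.30 and -0.34 ± 0.31 SE. Summed over all 19 genes, ADAMTS transcripts took 91.0 and 97.3 CPM against 122 and 120 CPM, most of it ADAMTS15. The summed MMP transcripts were 249 and 245 against 252 and 238 CPM, and the summed ADAM transcripts 357 and 363 against 351 and 372 CPM, so that both sums overlapped. The TIMP sum was 113 and 121 against 103 and 89.3 CPM.

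A list of genes that activate, inhibit or partner these proteases, or are close relatives of them, had 34 genes in the tables, of which 25 were tested. In this list 3 genes rose, 6 fell and 16 did not pass, a share called of 36.0% beside 30.8% of all tested genes, with a median log2 fold change of -0.10. Upper-quartile and total-count scaling each gave 2 higher and 9 lower. Leaving out replicate 1 labelled HMGB2 siRNA gave 3 lower genes, and leaving out replicate 2 of that label gave 2.

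The TspanC8 tetraspanins, which carry ADAM10 to the cell surface and steer it to its substrates, were 0 higher and 3 lower of 6, beside 14.1% called lower over all tested genes. TSPAN5 had 130 and 118 CPM in the libraries labelled HMGB2 siRNA, against 162 and 149 CPM in those labelled scramble (log2 fold change -0.33 ± 0.07 SE, adjusted p = 0.000143). TSPAN14 (-0.24 ± 0.08 SE) and TSPAN17 (-0.22 ± 0.07 SE) passed with adjusted p of 0.0118 and 0.0127. TSPAN5 was not called without replicate 2 labelled HMGB2 siRNA (0.0761), and TSPAN14 (0.215 and 0.128) and TSPAN17 (0.361 and 0.082) were not called without replicate 1 or replicate 2 of that label. TSPAN15 was the most abundant of the 6 by CPM and did not pass, with 303 and 313 against 352 and 317 CPM. In mean CPM per kilobase, TSPAN5 (41.1) and TSPAN17 (35.4) stood above TSPAN15 (33.1). Of the iRhom proteins that ADAM17 needs for transport, RHBDF1 fell (29.3 and 27.8 against 41.6 and 41.5 CPM, log2 fold change -0.54 ± 0.09 SE, adjusted p = 1.6e-06). RHBDF2 and FRMD8, a stabiliser of the iRhom complex, did not pass, with log2 fold changes of -0.19 ± 0.09 and -0.05 ± 0.07 SE.

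SPOCK1, a secreted proteoglycan of the testican family, rose the most in this list, with 8.62 and 9.06 CPM under the HMGB2 siRNA label and 4.0 and 3.36 CPM under the scramble label (log2 fold change 1.26 ± 0.17 SE, adjusted p = 6.86e-08). BSG (basigin or EMMPRIN), a membrane glycoprotein known as an inducer of MMPs, had 545 and 550 against 465 and 402 CPM (log2 fold change 0.34 ± 0.07 SE, adjusted p = 8.73e-05). RECK, a membrane-anchored inhibitor of MMPs, did not pass, with 16.8 and 17.3 against 17.6 and 20 CPM. FURIN, the convertase that activates MMP14 and many ADAMs, did not pass either (168 and 167 against 161 and 143 CPM, adjusted p = 0.112). The convertase PCSK6 fell, with a log2 fold change of -0.55 ± 0.20 SE (adjusted p = 0.0299). That call was lost without replicate 1 (0.0581) or replicate 2 labelled HMGB2 siRNA (0.256), without scramble replicate 1 (0.128) and with DESeq2 (0.128). THSD4, an ADAMTS-like matrix protein, fell by 0.43 ± 0.07 SE on the log2 scale (adjusted p = 2.58e-06). TLL2, a tolloid-like protease, had 1.53 and 1.51 against 0.50 and 1.01 CPM and passed only narrowly (1.02 ± 0.39 SE, adjusted p = 0.0441). It was not called with upper-quartile (0.0568) or total-count scaling (0.063), nor without replicate 1 (0.236) or replicate 2 labelled HMGB2 siRNA (0.169) and without scramble replicate 1 (0.329).

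**Figure D4:**
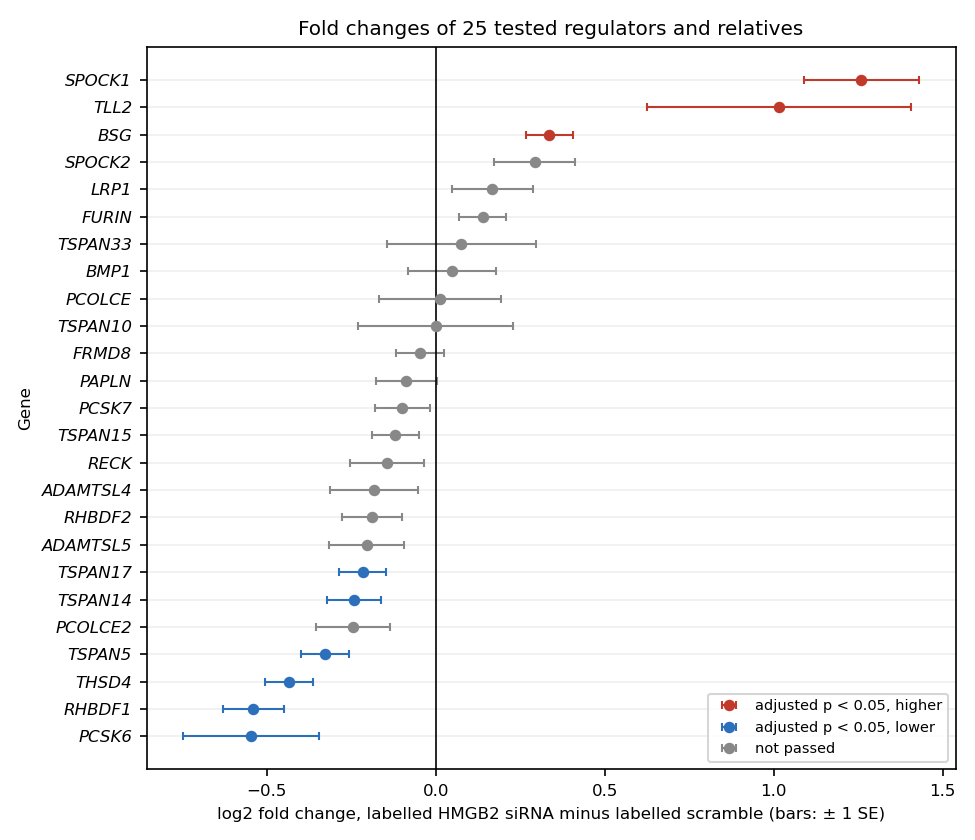
Log2 fold changes of the 25 tested regulators and relatives of the proteases, labelled HMGB2 siRNA minus labelled scramble, with bars of 1 SE on either side. HMGB2 itself was higher under the HMGB2 siRNA label. Red marks the 3 genes called higher, among them SPOCK1 at 1.26, blue the 6 called lower, and grey those that did not pass.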

How the data were processed

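Cells were lysed in TRIzol, and a company prepared the poly(A) libraries, per the labels' protocols. Each deposited table lists raw read counts per gene for 1 library, per the file headers, and exon length (bases, the only other unit) comes from the same tables. STAR, SAMtools 1.9, featureCounts of Subread 1.6.3, DESeq2 and GRCh38 are named, per the submitters' processing notes. How strand, multimapping and overlapping genes were handled is not given in the sources used here. Tables were assigned as recorded in the deposit and grouped by title.

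All 15161 genes passing filterByExpr (smallest count 10, smallest total 15) entered a quasi-likelihood fit and test in edgeR 4.0.16 (R 4.3.3), with TMM scaling and group as the only term, and Benjamini-Hochberg adjustment over all of them. An adjusted p under 0.05 was called, CPM used TMM-scaled totals, and levels per kilobase used exons on the primary chromosome. The SE is the size of the log2 fold change divided by the square root of F. Results were recomputed with other scalings (RLE, upper quartile, library totals) and filters, DESeq2 1.42.0, limma-voom (limma 3.58.1), a replicate block and leaving out each library. Members and lists were chosen with earlier results of these data known. HMGB2 and every tested member could be named, with full values for called members, the TIMPs and the 10 highest per kilobase, and, of related genes, those that passed. Some related genes that did not pass, and members not tested, were added for their role after their values were seen. ADAMTSL6, in the list of related genes, is another name of THSD4. Counts of 14911 genes were simulated for this comparison, with the spread of each gene estimated from these libraries and 49 or 50 genes changed at each fold. Of these, 32.0% of genes changed 1.25-fold, 71.4% changed 1.5-fold, 75.5% changed 2-fold and 96.0% changed 4-fold were recovered, with 6 false calls. The share of genes changed was far below the share called in the data, so these rates may not carry over to it.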

Additional observations from a re-analysis of the deposited data

How the results depend on the processing

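Of the 13 called members, all 13 kept their call and direction with RLE, upper-quartile and total-count scaling, without a low-count filter and with limma-voom. DESeq2 kept 9, lost 2 (ADAM8 and ADAMTS1) and gave no adjusted p for 2 (ADAMTS3 and ADAMTS7), and a minimum mean of 1 CPM removed ADAMTS7. The labels number the libraries 1 and 2 in each group, but same-numbered libraries did not deviate together (correlation -0.0144 over 15161 genes). With the replicate number as a block, all 13 calls were kept and HMGB2 had a log2 fold change of 3.07. Leaving out each library in turn kept 7 to 12 of the 13 calls, with 3 to 6 members higher and 4 to 8 lower, and 2 to 4 related genes higher and 2 to 7 lower. The median over tested members was -0.39 with upper-quartile and with total-count scaling, -0.32 without a low-count filter, -0.28 at a minimum mean of 1 CPM and -0.41 to -0.34 without single libraries. Of the leave-outs, only those of replicate 1 labelled HMGB2 siRNA (-0.36) and scramble replicate 2 (-0.41) moved it beyond its replicate spread (0.014), and its sign was negative in each of these settings. Signs of ADAM15, MMP16, MMP17, MMP24, ADAMTS10 and ADAMTS13, none of them called, changed under at least 1 alternative. Precision differed between genes of low and high counts in the same libraries. The SE of the log2 fold change was 0.55 for ADAM12 (7 to 17 counts per library) and 0.07 for ADAM10 (2441 to 4861 counts).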
